A study of Mus musculus with 29 samples.

Results

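Agap2 (ENSMUSG00000025422) held the window with the largest rise in lung DNA methylation (%DNAm) after ovalbumin (OVA) challenge among 259167 windows tested of 260686 in the table, and it was chosen by such differences between the group means in its short exonic windows. All 10 windows labelled Agap2 in that table were taken, in order along the gene, and they are numbered 1 to 10 from 5′ to 3′. Because the OVA comparisons chose the gene, its OVA differences are given as a description. The count of its windows that pass the main calling rule is printed beside the share of all windows that do. Counts under other settings lack this share, and nothing is read from them. The effect of maternal exposure, the difference between the OVA responses and the surrounding genes were tested, although the same libraries also entered the choice.

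Agap2 encodes AGAP2, also called PIKE, a protein that joins a GTPase-like domain, a PH domain, an ArfGAP domain and C-terminal ankyrin repeats. The GTPase part binds and stimulates phosphatidylinositol 3-kinase (PI3K) and the kinase Akt, which carry growth and survival signals from cell surface receptors. The ArfGAP part switches off Arf GTPases, which direct the budding of transport vesicles. Vertebrate DNA is methylated mostly at CpG dinucleotides, and dense groups of CpGs (CpG islands) are usually unmethylated while the sparse CpGs of gene bodies are usually methylated.

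Whole genome methylation sequencing was made of 29 lung libraries from BALB/c mice described as females of 13 weeks. The dams had received intranasal saline (Sham) or fine particulate matter (PM) before mating, through pregnancy and until weaning, and the offspring were sensitised and challenged with OVA, to induce allergic airways disease (AAD), or given only the buffer. There were 7 libraries each of Sham, Sham-OVA and PM offspring and 8 of PM-OVA offspring. All lungs had been through lung function testing, and the labels do not tie libraries to litters, so littermates could not be told from unrelated animals. Each value is the percent of 5-methylcytosine in one library, and the read counts behind a window's value are not given here. One library, Sham replicate 1, carried values in 1224 of 1230 Y chromosome windows against 29 to 46 in the other 28 libraries, which goes against its description as female. It was kept, and the Agap2 results are also given without it. Of the marker genes, 4 of 7 epithelial, 3 of 5 mesenchymal, 2 of 5 endothelial, 2 of 24 leucocyte and 0 of 5 liver genes had a window with a mean under 20%. The lung genes Sftpc, Sftpb and Scgb1a1 had none, and window length differed between the genes, so these values do not identify the tissue.

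Agap2 lies on chromosome 10 of GRCm38, chr10:127075284-127093169, on the plus strand. In the GENCODE M21 annotation its longest coding transcript starts at 127078907 and has 19 exons and 1186 codons, and a short noncoding transcript starts 3623 bases upstream. Every window held 100 CpG cytosines over both strands, so that a short window is a dense one. Window 2 (chr10:127079358-127079867, 510 bp) and window 3 (chr10:127079868-127080411, 544 bp) lay wholly within exon 1. Window 2 held the end of the 5′ UTR and codons 1 to 82, and window 3 held codons 83 to 264 and nothing but coding sequence. Window 8 (chr10:127090814-127091452, 639 bp) spanned exons 17 and 18 and codons 947 to 1106, with 160 intronic bases. Window 9 (chr10:127091453-127092214, 762 bp) began with 117 bases of the last intron and covered the final 240 coding bases, codons 1107 to 1186, and 405 bases of the 3′ UTR in exon 19. Windows 2, 3, 8 and 9 were shorter than nearly all others in the table, since only 2.78% to 4.67% of the tested windows were shorter still.

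The sequences of the gene's 2 CpG-dense ends are shown beside a CpG-poor stretch and the promoter, because the OVA rises followed this contrast. Capitals mark each CpG. The first 300 bases of window 3 (chr10:127079868-127080167, plus strand, all coding) hold 33 CpGs, and the first 300 bases of window 9 (chr10:127091453-127091752, intron and then the final exon's coding sequence) hold 22. The central 300 bases of window 6 (chr10:127086400-127086699, intronic) hold 3. The 250 bases before the coding transcript's RefSeq start (GRCm38.p6, chr10:127078657-127078906, in window 1) hold 6.
Window 3: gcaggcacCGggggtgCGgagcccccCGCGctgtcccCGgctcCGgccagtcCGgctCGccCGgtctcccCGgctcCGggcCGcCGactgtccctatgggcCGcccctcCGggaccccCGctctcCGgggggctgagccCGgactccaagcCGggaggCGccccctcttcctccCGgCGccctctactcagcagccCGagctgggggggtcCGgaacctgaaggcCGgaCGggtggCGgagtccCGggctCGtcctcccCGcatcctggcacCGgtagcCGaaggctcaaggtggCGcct
Window 9: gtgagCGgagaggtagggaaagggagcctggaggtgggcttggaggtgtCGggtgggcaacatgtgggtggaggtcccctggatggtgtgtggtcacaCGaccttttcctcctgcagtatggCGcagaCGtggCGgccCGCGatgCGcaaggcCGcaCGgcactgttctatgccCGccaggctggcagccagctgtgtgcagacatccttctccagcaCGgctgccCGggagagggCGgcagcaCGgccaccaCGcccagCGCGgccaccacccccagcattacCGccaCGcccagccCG
Window 6: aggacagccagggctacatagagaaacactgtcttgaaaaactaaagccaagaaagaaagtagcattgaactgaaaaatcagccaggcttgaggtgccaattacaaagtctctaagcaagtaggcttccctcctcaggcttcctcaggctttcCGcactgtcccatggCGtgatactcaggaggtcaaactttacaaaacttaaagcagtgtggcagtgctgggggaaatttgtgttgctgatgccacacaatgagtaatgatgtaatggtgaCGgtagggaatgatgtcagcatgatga
Promoter: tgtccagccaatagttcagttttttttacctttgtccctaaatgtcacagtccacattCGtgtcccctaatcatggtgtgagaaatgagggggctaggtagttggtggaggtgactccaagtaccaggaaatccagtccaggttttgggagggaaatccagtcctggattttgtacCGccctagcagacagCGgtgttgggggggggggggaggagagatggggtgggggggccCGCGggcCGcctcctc

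The RefSeq promoter entry of 300 bases, which runs 50 bases past the start, held 13 CpGs against a median of 7.00 over 32851 mouse promoters, and 62.1% of promoters held fewer. A GC box, searched as GGGCGG on both strands, occurred once there and is found in 35.7% of all promoters. It also occurred once in each of the printed stretches of windows 3 and 9. None of the other motifs searched on both strands, TATAAA (13.6% of promoters), CACGTG (7.15%), CCGGAAG (8.86%) and the STAT motif TTCNNNGAA (8.30%), was in the promoter entry or in these stretches, which says nothing about the factors that bind them.

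In lungs without OVA, Agap2 methylation was lowest in windows 1 to 4, around the start and exon 1, and in windows 8 and 9, at the end of the coding sequence. In Sham, window 2 stood at 10.5% ± 7.21 (SD, n = 7), window 3 at 13.9% ± 2.78, window 8 at 23.1% ± 4.27 and window 9 at 21.9% ± 6.46. Window 1, which holds 1232 bases of promoter and the start of the 5′ UTR, was at 17.4% ± 5.98, and window 4, which holds the rest of the exon 1 coding sequence and 861 bases of intron 1, was at 22.8% ± 4.08. The CpG-poor interior was far more methylated, at 40.8% ± 2.48 in window 5, 81.9% ± 1.31 in window 6 and 59.2% ± 2.71 in window 7. Window 10, which holds the rest of the 3′ UTR and runs into the end of the neighbouring gene Os9, was at 59.1% ± 1.82.

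**Figure D1:**
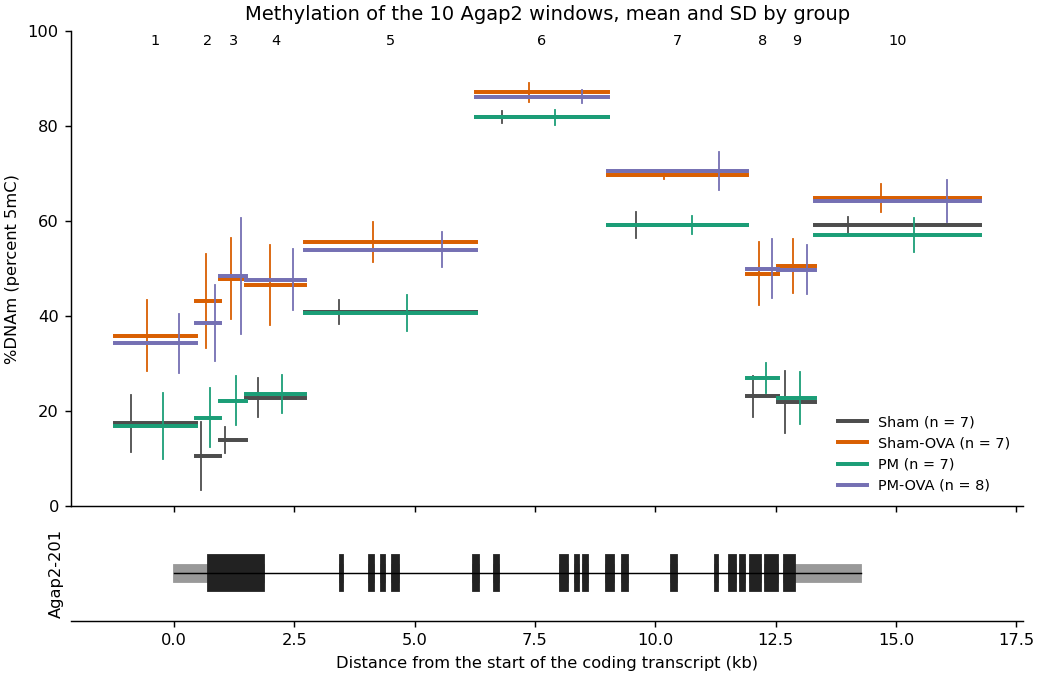
Mean %DNAm (percent 5mC, y axis) of the 4 groups in each of the 10 Agap2 windows against distance in kb from the start of the coding transcript, with vertical bars for the SD. The track beneath shows the exons (tall black boxes coding, grey boxes untranslated). Both OVA groups lie above both groups without OVA in every window, with the widest gaps at the CpG-dense ends and the narrowest in window 6.

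With OVA the mean of all 10 windows rose, in Sham and in PM offspring. Averaged over the 10 windows, the Sham libraries ranged from 32.6% to 36.8% (median 35.2%) and the Sham-OVA libraries from 51.3% to 59.0% (median 54.8%). The PM libraries ranged from 34.8% to 40.2% (median 35.9%) and the PM-OVA libraries from 50.3% to 59.2% (median 53.9%). No library with OVA therefore fell as low as any library without it. These are whole-lung values, so a shift in the mix of cell types and a shift of methylation within a cell type cannot be told apart.

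Window 3 of exon 1 showed the largest rise of all 259167 tested windows in Sham. The Sham libraries held 10.1% to 17.3% (median 14.4%) and the Sham-OVA libraries 34.5% to 61.5% (median 46.8%), a difference in means of 34.0 points. The 2 groups were separated by 17.2 points. In PM offspring the values were 17.0% to 30.3% (median 20.6%) and in PM-OVA offspring 29% to 65.3% (median 46.9%), a difference of 26.3 points, the third largest rise of that comparison. Here the groups overlapped, because PM-OVA replicate 4 (29%) lay below PM replicate 1 (30.3%).

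Window 2, immediately upstream in the same exon, had the second largest rise in Sham. Its values were 1.60% to 19.6% (median 11%) in Sham and 22.2% to 51.5% (median 45.6%) in Sham-OVA, a difference of 32.7 points. The lowest Sham-OVA library, replicate 3, was only 2.60 points above the highest Sham library. PM libraries held 8.05% to 27.3% (median 18%) and PM-OVA libraries 23.3% to 50.6% (median 40.3%), a difference of 20 points and rank 34, again with overlap, since PM-OVA replicate 2 was within the range of the PM libraries.

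Window 9, at the other end of the coding sequence, had the largest rise of any window in PM offspring and the fourth largest in Sham. In Sham it held 13.5% to 31.6% (median 23.9%) and in Sham-OVA 43.0% to 59.7% (median 50.5%), a difference of 28.7 points. In PM it held 11.7% to 27.7% (median 24.7%) and in PM-OVA 39.5% to 56.3% (median 51.4%), a difference of 27.0 points. Neither pair of groups overlapped. Window 8, covering the exons just before it, moved from 15.1% to 27.6% in Sham to 38.7% to 54.9% in Sham-OVA, and from 21.6% to 30.3% in PM to 41.8% to 59.2% in PM-OVA. The differences were 25.7 and 23.1 points, each rank 10, and these groups also did not overlap.

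Window 4 went from a mean of 22.8% to 46.5% in Sham and from 23.6% to 47.7% in PM, where its rise of 24.0 points exceeded those of windows 2 and 8. Window 1 went from 17.4% to 35.9% and from 16.8% to 34.3%. In the gene's interior window 5 rose by 14.8 points in Sham and 13.5 in PM, and window 7 by 10.7 and 11.3. Window 6, the most methylated, rose by 5.16 and 4.23 points, and window 10 by 5.82 and 7.05. Groups did not overlap in 8 windows in Sham (all but 6 and 10) and in 5 windows in PM (4, 5, 7, 8 and 9), where 3.15% and 1.65% of all tested windows were likewise separated and higher with OVA. A differentially methylated region (DMR) was defined as a window with an adjusted p under 0.05 (limma, Benjamini-Hochberg) and a difference of at least 10 points. By this rule 8 of the 10 windows, all but 6 and 10, were DMRs in both OVA comparisons, where 0.775% of all windows were called in Sham and 0.584% in PM. The windows called higher with OVA made up 0.479% and 0.263% of all windows and those called lower 0.296% and 0.321%. Since these comparisons chose the gene, nothing is read from its counts.

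**Figure D2:**
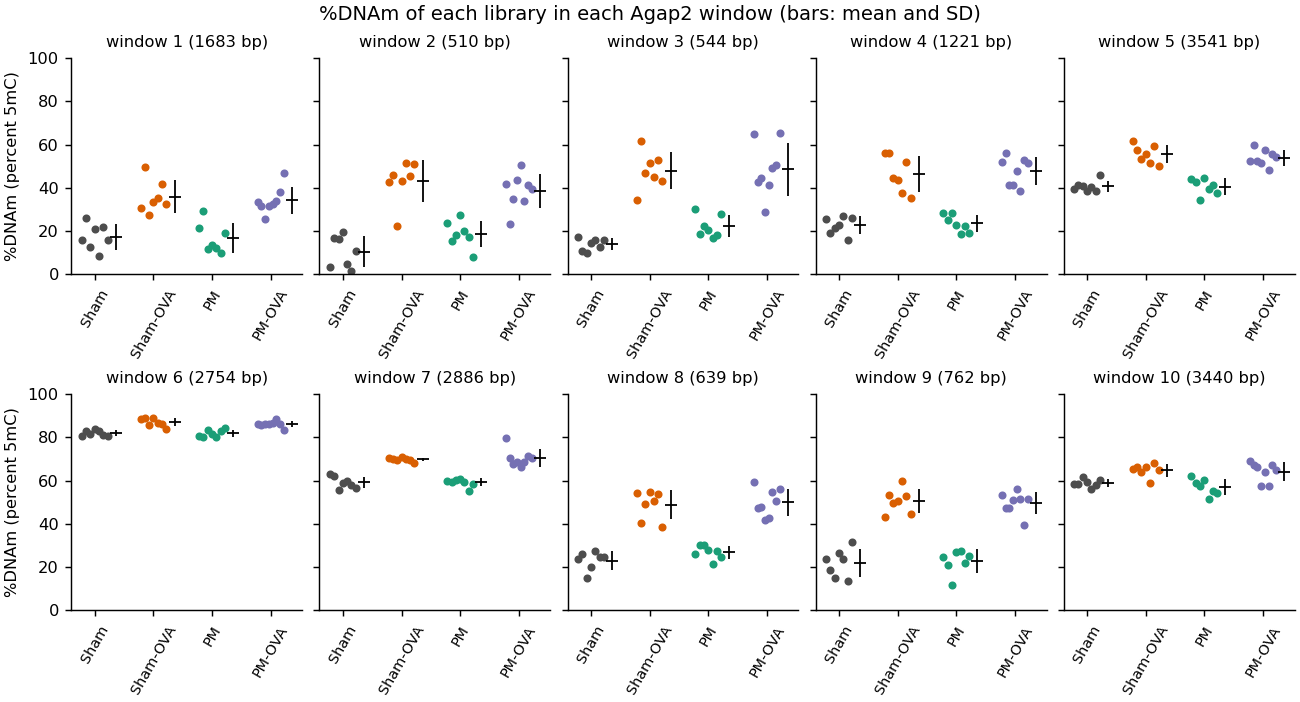
Each point is the %DNAm (percent 5mC, y axis from 0 to 100) of one library in one of the 10 Agap2 windows, by group, with the mean and SD beside the points. The 7 Sham and 7 PM libraries sit below most or all of the OVA libraries in each window, with 1 low Sham-OVA library at 22.2% in window 2 and 1 low PM-OVA library at 29% in window 3.

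Along the gene the rise was larger where CpGs were denser. Across the 10 windows, CpGs per 100 bp ranged from 1.38 in window 5 to 9.61 in window 2, and the rise had a Pearson r with this density of 0.92 in Sham (Spearman rho 0.87) and 0.77 in PM (rho 0.71). This is a description over 10 adjoining windows measured in the same libraries, and since each window holds the same number of CpG cytosines, the choice of a gene with short windows already favoured dense ones. Against the level before OVA, which is itself part of the rise, the r was -0.91 in Sham (rho -0.89) and -0.88 in PM (rho -0.67), a relation that this shared term helps to set.

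No Agap2 window was a DMR between PM and Sham offspring. The comparison without OVA uses the same Sham and PM libraries as the OVA comparisons. A choice by the rise in Sham favours low Sham values, and so a positive PM difference in the windows with the largest rises. Without OVA, PM offspring had 8.30 points more methylation than Sham in window 3 (log2 ratio 0.78 ± 0.26 SE, unadjusted limma p of 0.00490, adjusted p = 0.812) and 8.10 points more in window 2 (log2 ratio 1.16 ± 0.40 SE, unadjusted limma p of 0.00659, adjusted p = 0.812). In window 3 the groups overlapped, with the highest Sham library, replicate 1, at 17.3% and the lowest PM library at 17.0%. The differences in the other 8 windows lay between -1.95 points (window 10) and 3.77 points (window 8), with adjusted p of 0.882 to 1.000 (limma). No window in the whole table was called for PM without OVA (0%), while 5.79% had an unadjusted p under 0.05, as did 2 of the 10 Agap2 windows. In 117 other autosomal windows of at most 800 bp with a mean between 20% and 40% over all libraries, the median PM difference was 0.435 points and the 95th percentile 3.88 (0.150 and 3.84 without Sham replicate 1). With OVA these windows differed by a median of 6.37 points in Sham (77.8% higher) and 3.16 in PM (71.8% higher).

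With OVA, no Agap2 window passed the test between PM and Sham offspring. Window 3 stood at 47.9% ± 8.50 (SD, n = 7) in Sham-OVA and 48.5% ± 12.2 (SD, n = 8) in PM-OVA, a log2 ratio of 0.03 ± 0.25 SE. Window 9 stood at 50.6% ± 5.64 and 49.8% ± 5.10, a log2 ratio of -0.05 ± 0.20 SE. The largest difference was in window 2, with PM-OVA minus Sham-OVA at -4.6 points (-8.10 without Sham-OVA replicate 3 and -2.41 without PM-OVA replicate 2), and the adjusted p of the 10 windows ran from 0.881 to 0.993 (limma). None had an unadjusted p under 0.05, and no window in the table was called for PM with OVA (0%).

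The difference between the OVA responses was tested as the rise in PM minus the rise in Sham. The rises of windows 2 and 3 in Sham ranked 2 and 1, so the choice of the gene favoured a negative value there. Their unadjusted p are given as a description. Window 2 gave -12.7 points (log2 ratio -1.43 ± 0.55 SE, unadjusted limma p of 0.0153, adjusted p = 0.616) and window 3 gave -7.70 points (log2 ratio -0.75 ± 0.36 SE, unadjusted limma p of 0.0451, adjusted p = 0.671). Leaving out 1 library moved the value of window 3 to between -10.1 (without PM-OVA replicate 8) and -4.91 (without PM-OVA replicate 4), and that of window 2 to between -16.2 (without Sham-OVA replicate 3) and -10.5 (without PM-OVA replicate 2). In the other 8 windows the difference was between -2.59 points in window 8 and 1.23 points in window 10, and the adjusted p between 0.840 and 0.999 (limma). For the interaction no window of the table was called (0%), and 7.40% had an unadjusted p under 0.05. In window 2 the PM minus Sham difference was 8.10 points without OVA and -4.60 points with OVA. In window 3 it was 8.30 points without OVA and 0.603 points with OVA. The level without OVA is itself a term of the rise, and its part in the smaller rises was not tested. Neither window passed the interaction test over all windows.

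The values were also taken without Sham replicate 1. Then the rise in Sham was 34.5 points in window 3, 31.5 in window 2 and 29 in window 9. By the same rule 8 Agap2 windows were DMRs. The share of all windows called in this fit is not given, so nothing is read from that count. The interaction difference was -11.5 points in window 2 (adjusted p = 0.662, limma) and -8.27 in window 3 (adjusted p = 0.669, limma). Without OVA the PM minus Sham difference was 6.94 points in window 2 and 8.87 in window 3 (adjusted p = 0.864 and 0.834, limma).

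The windows on either side of those labelled Agap2 were not called higher with OVA. Among 70 windows labelled with other genes within 100 kb, 4 were higher DMRs in each OVA comparison and 0 were lower, or 5.71% against the 0.775% and 0.584% of the whole table. Their median difference was -0.0255 points in Sham and -0.0694 in PM, with -0.414 and -1.03 over all windows. The window adjoining window 1 upstream (chr10:127073792-127077674) is labelled with the long noncoding RNA A730063M14Rik. It overlaps the annotated Agap2 gene, holds the first exon of the noncoding Agap2 transcript, and went the other way. It fell from 48.7% ± 2.29 to 40.4% ± 3.06 in Sham (SD, both n = 7, adjusted p = 3.07e-06, limma) and from 46.8% ± 1.52 to 39.8% ± 1.35 in PM (n = 7 and 8, adjusted p = 1.19e-05, limma), a change of under 10 points. The adjoining downstream window (chr10:127095655-127098308, Os9, which encodes a lectin of endoplasmic reticulum quality control) differed by 1.22 and 0.788 points, with adjusted p of 0.365 and 0.484 (limma). Cdk4, which encodes a cell cycle kinase, lies nearby upstream, and its 3 windows differed by -2.02 to 1.46 points in Sham, none with an adjusted p under 0.05, and by -2.13 to 2.04 points in PM, where 1 window (chr10:127065379-127068565) was higher by 2.04 points (adjusted p = 0.0256, limma).

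The 4 neighbouring DMRs, the same in both comparisons, lay in Ctdsp2 (3 windows) and B4galnt1 (1 window). Ctdsp2 encodes a phosphatase of the RNA polymerase II C-terminal domain, and its window chr10:126982167-126985725 upstream, rose from 19.3% ± 3.61 to 39.9% ± 4.94 in Sham (adjusted p = 5.11e-09, limma) and from 20.7% ± 2.19 to 39.6% ± 3.47 in PM (adjusted p = 8.78e-09, limma). B4galnt1 encodes a ganglioside synthase, and its window chr10:127169490-127170747 downstream, rose from 22.8% ± 2.95 to 36.8% ± 2.79 in Sham (adjusted p = 4.78e-05, limma) and from 22.8% ± 5.99 to 37.4% ± 4.97 in PM (adjusted p = 9.02e-06, limma). The SDs are over 7 libraries a group and 8 in PM-OVA. Of all 70 windows, 10 were higher and 10 lower at an adjusted p under 0.05 in Sham whatever their size, and 12 and 11 in PM (limma). An unadjusted p under 0.05 (limma) was found in 34.3% of them in Sham and 41.4% in PM, against 45.0% and 51.4% over all windows. None of the 70 was called for maternal PM or for the interaction (lowest adjusted p = 0.582, limma).

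**Figure D3:**
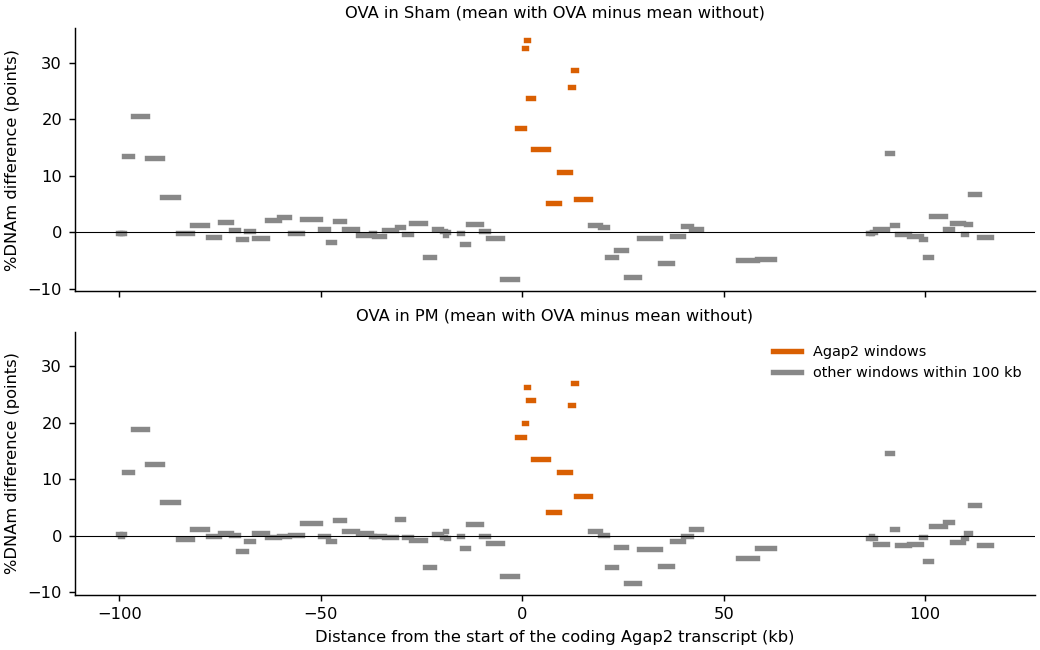
OVA differences in %DNAm (percentage points, y axis) of the Agap2 windows (orange) and of the 70 other windows within 100 kb (grey) against distance in kb from the start of the coding transcript, in Sham (upper) and PM (lower). The Agap2 windows stand between 4.23 and 34.0 points, the window just upstream lies at -8.33 and -7.07, and further rises appear at Ctdsp2 on the left and B4galnt1 on the right.

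Other ArfGAP genes had few DMRs. The 22 genes of this family had 494 windows, of which 1 rose and 1 fell in Sham (0.405%) and 1 rose and 2 fell in PM (0.607%), near the share of the whole table. The window that rose was in Git2 (chr5:114736098-114738964), an ArfGAP that binds paxillin at focal adhesions, from 54.0% ± 2.99 to 65.9% ± 1.98 in Sham and from 56.1% ± 3.34 to 67.2% ± 2.29 in PM (adjusted p = 3.30e-07 and 2.78e-07, limma). Agap1, the closest relative on the list together with Agap3, had 126 windows, and 1 (chr1:89607690-89610657) fell by 10.9 points from 85.7% ± 1.75 in Sham and by 11.9 points from 85.3% ± 1.92 in PM (adjusted p = 6.26e-08 and 9.54e-09, limma). Agap3 had no DMR among 21 windows. The second lower DMR in PM was in Adap1, from 62.5% ± 1.67 to 52.5% ± 3.29 (adjusted p = 5.39e-07, limma).

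The PI3K and Akt pathway, on which AGAP2 acts, had 284 windows in 19 genes. In Sham 5 rose and 6 fell (3.87%), and in PM 2 rose and 4 fell (2.11%), where 0.775% and 0.584% of all windows were called, with median differences of 0.331 and 0.0325 points. Pik3cd, the PI3K catalytic subunit found mainly in leucocytes, had DMRs in both directions. Its window chr4:149674563-149676011 rose from 30.6% ± 3.51 to 46.9% ± 5.45 in Sham and from 26.4% ± 2.18 to 46.8% ± 4.09 in PM (adjusted p = 6.12e-07 and 6.12e-09, limma), while chr4:149662517-149666204 fell from 68.5% ± 4.82 to 55.4% ± 3.69 in Sham (adjusted p = 4.48e-05, limma) and from 68.3% ± 2.96 to 58.3% ± 5.48 in PM, a change of -9.96 points that missed the 10-point rule (adjusted p = 4.98e-04, limma). Akt1 rose in chr12:112663877-112666353 from 47.4% ± 2.25 to 61.4% ± 4.62 in Sham and from 48.6% ± 2.07 to 59.4% ± 2.49 in PM (adjusted p = 1.95e-07 and 4.00e-06, limma). Pik3cg, another PI3K catalytic subunit of leucocytes, was lower in chr12:32200647-32204317, at 78.0% ± 2.82 against 62.1% ± 5.23 in Sham and 77.0% ± 1.58 against 61.2% ± 3.83 in PM (adjusted p = 1.26e-07 and 6.10e-08, limma), and the regulatory subunit gene Pik3r2 went from 65.0% ± 1.39 to 52.2% ± 5.63 in chr8:70768678-70769650 in Sham and from 63.3% ± 2.23 to 49.8% ± 2.29 in PM (adjusted p = 1.22e-06 and 2.65e-07, limma). Inpp5d, which encodes the phosphatase SHIP1 that opposes PI3K in blood cells, held 3 of the lower DMRs in Sham and 2 in PM. Pik3r1, a regulatory subunit gene with 26 windows, held 2 of the higher DMRs in Sham and 0 in PM, and no window of the list was called for the interaction.

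Genes whose proteins are known to bind AGAP2 or share its signalling had 267 windows in 12 genes, with Arf5 of the 13 not among the tested windows. A single window was called in each OVA comparison (0.375%, with 0.775% and 0.584% over all windows), in Stat5b, a transcription factor of cytokine signalling. It lay at chr11:100822904-100826237 and fell from 72.1% ± 2.09 to 61.3% ± 1.95 in Sham and from 72.2% ± 1.80 to 60.9% ± 2.06 in PM (adjusted p = 2.37e-08 and 5.04e-09, limma). None of these 3 lists had a call for maternal PM or the interaction. An unadjusted p under 0.05 (limma) was found in 4.87% to 9.86% of a list's windows without OVA (5.79% over all windows), 3.17% to 5.99% with OVA (5.96%) and 6.74% to 7.49% for the interaction (7.40%).

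Windows of leucocyte genes were among those called lower with OVA in the same libraries. Of the 135 windows of 24 leucocyte genes, 12 were lower DMRs and 0 higher in Sham, and 10 were lower and 0 higher in PM. Over all windows 0.296% were called lower and 0.479% higher in Sham, and 0.321% and 0.263% in PM. The mean over these windows ranged from 70.9% to 72.6% in Sham, 69.0% to 70.7% in Sham-OVA, 71.7% to 73.1% in PM and 69.1% to 70.2% in PM-OVA. The mean level of the endothelial list was higher with OVA, from 64.2% to 67.0% in Sham to 67.0% to 69.3% in Sham-OVA, with 2 of its 69 windows higher DMRs and 1 lower, and from 63.9% to 67.8% in PM to 66.9% to 69.2% in PM-OVA, with 1 higher and 1 lower. Of 40 epithelial and 52 mesenchymal windows none was called in either OVA comparison. The mesenchymal level ranged from 66.0% to 67.1% in Sham and 64.9% to 66.4% in Sham-OVA, and from 66.2% to 67.8% in PM and 64.7% to 66.0% in PM-OVA, where the groups did not overlap. The epithelial level overlapped in both comparisons, at 50.5% to 52.3% in Sham, 51.4% to 52.5% in Sham-OVA, 51.3% to 52.4% in PM and 50.7% to 52.3% in PM-OVA. Of the 28 windows of the 5 liver genes, 0 were called in Sham and 1, a lower DMR, in PM. The part of these marker gene differences in the Agap2 rise was not tested, apart from the correlations within groups that follow.

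Within a group, no correlation between the 2 ends of the gene, or of either with the leucocyte level, passed the test at this number of libraries. Windows 3 and 9 had a Pearson r of 0.72 in Sham (n = 7, exact permutation p = 0.0742, adjusted p = 0.456, 2-sided; Spearman rho 0.57, exact permutation p = 0.200, adjusted p = 0.726), which became 0.61 without the 2 libraries farthest from the median of window 3. In Sham-OVA the r was 0.55 (n = 7, exact permutation p = 0.190, adjusted p = 0.456; rho 0.64, exact permutation p = 0.139, adjusted p = 0.726), in PM 0.03 (n = 7, exact permutation p = 0.962, adjusted p = 0.962; rho -0.21, exact permutation p = 0.662, adjusted p = 0.794) and in PM-OVA 0.04 (n = 8, exact permutation p = 0.924, adjusted p = 0.962; rho 0.10, exact permutation p = 0.840, adjusted p = 0.906). Without the 2 farthest libraries these were 0.18, -0.71 and -0.47. Against the leucocyte level, window 3 had r of -0.30, -0.19, 0.60 and -0.55 and window 9 of -0.30, -0.70, 0.06 and -0.20 in Sham, Sham-OVA, PM and PM-OVA. The lowest of these 8 exact permutation p was 0.0827 (window 9 in Sham-OVA, n = 7, adjusted p = 0.456). Spearman's rho against the leucocyte level was -0.36, -0.21, 0.46 and -0.48 for window 3 and -0.07, -0.61, -0.21 and -0.26 for window 9, all with an adjusted exact permutation p of 0.726 or more. Without the 2 farthest libraries the r were -0.10, -0.08, 0.53 and -0.29 for window 3 and -0.60, -0.58, -0.28 and -0.31 for window 9. None of the 12 correlations passed the adjustment over the family.

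**Figure D4:**
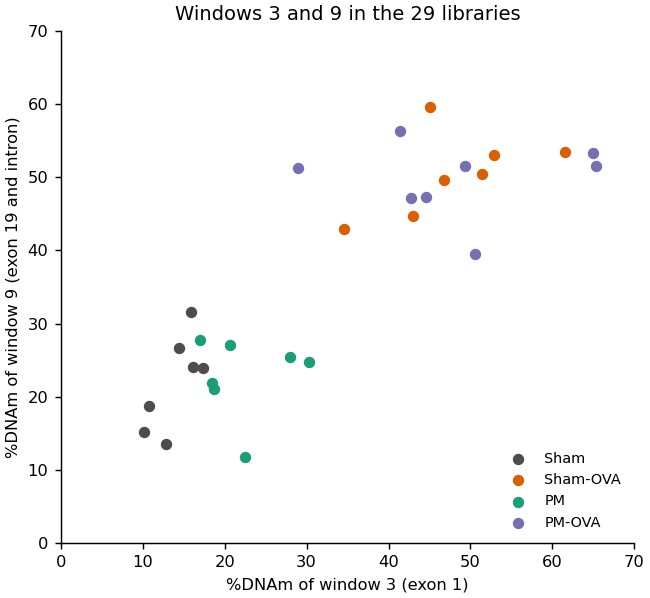
%DNAm (percent 5mC) of window 9 (y axis) against window 3 (x axis), one point per library, coloured by group, both axes from 0 to 70. The OVA libraries form the upper right cloud, between 29% and 65.3% in window 3, and the others the lower left, between 10.1% and 30.3%, while no line runs through the points of a single group in PM or PM-OVA.

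The deviations of the adjoining windows 2 and 3 of exon 1 from their group means had an r of -0.05 over the 29 libraries, against 0.77 when the groups were left in. Between window 3 and the other windows of the gene this r of deviations ran from -0.05 to 0.48, with windows 1, 4, 7, 8 and 10 at 0.35 or above, and between window 9 and the others from -0.24 (window 10) to 0.23 (window 2). How much of the spread within a group came from read sampling cannot be given without the counts.

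The windows most like Agap2 over the 29 libraries, outside its own surroundings, also followed the OVA groups. For window 3 the highest Pearson r belonged to Smad7, an inhibitor of transforming growth factor signalling (0.93, means of 39.7% in Sham, 57.8% in Sham-OVA, 41.5% in PM and 58.1% in PM-OVA), the kinase gene Map4k3 (0.93, 72.8%, 78.0%, 74.0% and 78.4%), Dock2, a leucocyte activator of the GTPase Rac (0.93, 74.1%, 81.5%, 74.6% and 81.0%), Smarca2, an ATPase of chromatin remodelling complexes (0.92), and the transcription factor gene Sox5 (0.92). For window 9 they were Shisa8 (0.93, 34.4%, 56.5%, 34.3% and 56.3%), the zinc finger gene Zfp516 (0.93), the paxillin gene Pxn (0.93, 35.3%, 50.3%, 35.2% and 48.2%), Wbp1l (0.92) and the homeobox gene Dbx2 (0.92). The difference between groups with and without OVA enters this likeness. The r of the deviations from the group means was 0.60 to 0.73 for the first 5 and 0.39 to 0.65 for the second. These deviations are part of the r that picked the windows, so no likeness beyond OVA is read from them. Ranking all windows on the deviations alone gave a highest r of 0.75 for window 3 and 0.71 for window 9, and shared 1 and 0 of the 5 windows.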

How the data were processed

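Per the labels, DNA of 29 lung libraries was converted with NEBNext Enzymatic Methyl-seq, with unmethylated lambda DNA added. The authors trimmed reads with Trim Galore and called methylation with DRAGEN on GRCm38. They deposited a table of percent 5mC over consecutive windows described as 100 CpGs, each with a gene label. In the Agap2 windows this was 100 CpG cytosines counted over both strands. The percent was transformed as the log2 ratio of (percent + 1) to (100 − percent + 1), and 4 group means were fitted to all libraries with limma 3.58.1 (R 4.3.3), adjusting p over the 259167 windows with at least 3 values in every group. The other 1519 were left out. All chromosome 10 windows started and ended on a CpG of the GRCm38 sequence used here. The members and gene lists were chosen with earlier results of these data known. Named were all Agap2 windows, the adjoining windows, the 2 largest rises and falls per list and OVA comparison (1 window per gene), and the 5 most alike windows. Features chosen after their values were seen are Inpp5d, Pik3r1, Cdk4, Agap3 and the lung genes named for the tissue check. Correlations used 2-sided exact permutation. Sequences are from the RefSeq GRCm38.p6 genome and promoter table. Alternatives were another offset, scale, centring, threshold and filter, a replicate block, and leaving out libraries. The fit was tested on simulated data. No pair of libraries was identical, and within groups their correlation over windows was 0.992 to 0.997. The labels do not say whether libraries of a group came from separate litters, so p-values measure the spread between these libraries.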

Additional observations from a re-analysis of the deposited data

Results flagged for a closer look

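Of 40 sets of values (10 windows in 4 groups), 5 held a library farther from the rest than Dixon's 95% limit, where chance gives about 1 in 20. In window 2, Sham-OVA replicate 3 was at 22.2% and the next lowest library at 42.9%. In window 5, Sham replicate 7 was at 45.9% and the next highest at 41.4%. In window 7, PM replicate 6 was at 55.2% with the next at 58.7%, and PM-OVA replicate 1 was at 79.6% with the next at 71.3%. In window 9, PM replicate 3 was at 11.7% and the next at 21.0%. The OVA rise was 36.2 points in window 2 without Sham-OVA replicate 3, 10 points in window 7 without PM-OVA replicate 1, and 25.2 points in window 9 without PM replicate 3.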

How the results depend on the processing

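Neither OVA comparison lost or gained an Agap2 DMR when the offset was 0.1, on the percent scale, with libraries centred (median shifts of -1.07 to 1.28 points), on complete windows, in fits on 2 groups, or with any single library left out (8 to 8 in both). At an adjusted p under 0.000001 the DMRs were 5 in Sham and 4 in PM. Without a minimum difference all 10 windows passed in both, where 45.0% of all windows in Sham and 51.4% in PM had an unadjusted p under 0.05 (limma). The shares of all windows called under the settings of this paragraph are not given, so nothing is read from these counts. Maternal PM and the interaction kept 0 DMRs under every setting run, with a lowest adjusted p without a library of 0.607 (PM without OVA), 0.713 (PM with OVA) and 0.470 (interaction, without Sham-OVA replicate 3, limma). With the replicate block there were 8 DMRs in each OVA comparison and 0 in the others, and the block changed no other call of the Agap2 windows. Same-numbered libraries had a median correlation of deviations of 0.0174 (42 pairs, -0.0705 to 0.13, 3 above 0.1). Pairs with other numbers had a median of -0.00214 (273 pairs, -0.133 to 0.134, 4 above 0.1). These values cannot tell whether same-numbered libraries share more than a number. The library names label 10 libraries differently, among them PM-OVA libraries, replicate 8 included, whose names carry Rel in place of a plain number. By the numbers in the names the median was 0.0246 (36 pairs, -0.0444 to 0.130, 2 above 0.1).

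Alternatives for the gene lists were added after seeing the data. Leaving out each library gave 2 to 4 ArfGAP DMRs (4 without Sham-OVA replicate 7) and 1 to 2 in the partner list in Sham (2 without Sham replicate 2 or 6 or Sham-OVA replicate 3 or 7), and the partner list held 2 with libraries centred. The PI3K and Akt list moved most, with 10 to 13 DMRs in Sham and 6 to 9 in PM, and the ArfGAP list held 2 to 4 in PM. The neighbouring windows kept 4 and 4. Of the 5 windows most like windows 3 and 9, 1 and 0 were shared by the ranking on deviations and 1 and 1 by Spearman's rho. Read counts per window are not given here, so errors are those between libraries.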
